A study of Mus musculus with 4 samples.

Results

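The genes described here are the transcription factors of the NF-kB family, their inhibitors, and cytokines, chemokines, adhesion molecules and other genes known as NF-kB targets or as receptors that feed the pathway. They were chosen by name, 37 genes in all. Where several probe sets were annotated to a gene alone, the one of highest mean level represented it. In this way 36 of the 37 were measured, out of 18193 genes in the whole table, and Nfkb1 was not analysed here. Affymetrix arrays of mouse heart RNA were compared between wild-type mice aged 3.6 months and mice aged 3.5 months whose GSK-3beta carries alanine in place of serine 9 (GSK-3beta S9A knock-in). All were labelled C57B6 and were taken at baseline, with 2 arrays per genotype. GSK-3beta is a kinase that is held inactive when serine 9 is phosphorylated, and the replacement removes that site. Whether the 2 samples of a genotype are 2 animals is not stated in the labels. P-values therefore reflect only how far these samples lie apart, which may be technical. They also do not name the part of the heart or the sex of the mice. Values are log2 expression, so a difference of 1 is a doubling, and differences are given as knock-in minus wild-type.

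NF-kB factors are dimers of Rel proteins that wait in the cytoplasm bound to IkB inhibitors. Signals from Toll-like receptors, the interleukin-1 receptor or tumour necrosis factor lead to phosphorylation and destruction of IkB, and the freed dimers enter the nucleus and bind kappaB sites in DNA. Their targets include chemokines and endothelial adhesion molecules that recruit leukocytes, and also the inhibitors Nfkbia and Tnfaip3, which switch the response off again. In heart the pathway is active in endothelial cells, fibroblasts and resident macrophages as well as in cardiomyocytes, and it is known for its part in the response to infarction and infection. RNA was taken from whole tissue, so fewer cells of a type and less RNA per cell cannot be told apart.

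The RefSeq promoter of Nfkbia is shown because Nfkbia had the smallest p of the members, and because it is itself a textbook NF-kB target. The window is chr12:55492598-55492897 of GRCm38.p6 on the minus strand. It is written 5′ to 3′ from 250 bases before the transcription start to the end of the first 50 transcribed bases, with the match to the kappaB consensus in capitals. That match lies 29 to 20 bases upstream of the start.
Nfkbia: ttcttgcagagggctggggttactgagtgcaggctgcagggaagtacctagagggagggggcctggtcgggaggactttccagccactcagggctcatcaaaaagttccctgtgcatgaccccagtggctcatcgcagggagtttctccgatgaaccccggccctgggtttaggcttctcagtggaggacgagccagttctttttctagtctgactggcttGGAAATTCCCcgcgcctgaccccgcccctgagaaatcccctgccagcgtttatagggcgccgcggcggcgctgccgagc

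Both strands of these windows were searched for the 10-base kappaB consensus and for the 9-base motif GGGANTTCC. The promoter table held 26 of the 37 genes. Of these 26, 11 (42.3%) had the consensus in at least 1 window, compared with 9.55% of all 27025 genes in the table. The genes were chosen by name as factors, known targets or receptors of the pathway. Higher shares of either motif among them are therefore not an independent result. The 9-base motif was in 5 of the 26 (19.2%) and in 1.92% of all genes. Those 5 genes, Tlr2, Bcl3, Tnfaip3, Rel and Nfkb2, also had the consensus, and the 9-base match overlapped it. One match of each of the other 10 genes is printed below with 10 bases on either side, again in the direction of the gene and with the matching bases in capitals (a run of 11 capitals is a pair of overlapping 10-base matches), to show which letters matched in inhibitors, factors, receptors, a cytokine and chemokines.
Tnfaip3, chr10:19015403-19015432, minus strand: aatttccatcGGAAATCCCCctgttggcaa
Bcl3, chr7:19822734-19822763, minus strand: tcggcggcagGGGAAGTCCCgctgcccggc
Nfkbie, chr17:45555584-45555613, plus strand: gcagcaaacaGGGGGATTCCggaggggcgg
Rel, chr11:23771041-23771071, minus strand: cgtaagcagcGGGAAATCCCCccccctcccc
Nfkb2, chr19:46304688-46304718, plus strand: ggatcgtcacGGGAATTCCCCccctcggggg
Tlr2, chr3:83841761-83841791, minus strand: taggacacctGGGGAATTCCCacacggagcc
Il1r1, chr1:40266344-40266373, plus strand: cagggattttGGAATGCCCCcaaggagatg
Il6, chr5:30013060-30013089, plus strand: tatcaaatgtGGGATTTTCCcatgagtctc
Cxcl1, chr5:90891164-90891194, plus strand: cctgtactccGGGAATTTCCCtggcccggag
Cxcl2, chr5:90903792-90903822, plus strand: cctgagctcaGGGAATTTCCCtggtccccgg

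A match is a run of letters and not a measured binding site. A window without a match does not show that a gene lacks a site, because the windows begin only 250 bases before the start. Of the 11 genes with a match, 10 had a negative difference between knock-in and wild-type hearts (median -0.09, from -0.54 for Nfkbia to 0.05 for Cxcl1). Of the 15 genes with a window and no match, 11 had a negative difference (median -0.12, from -0.35 for Myd88 to 0.42 for Ccl8). The differences of these 2 groups of genes overlapped, and they were not compared by a test. The genes without an entry in the table were Nfkb1, Relb, Nfkbiz, Cd14, Tlr4, Ccl2, Ccl4, Ccl5, Ccl7, Vcam1 and Nos2.

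The array medians lay between 5.97 and 6.04, and heart muscle transcripts were high in all 4 arrays. The 8 cardiomyocyte markers, Myh6, Tnnt2, Tnni3, Actc1, Ryr2, Pln, Myl2 and Ttn, had a mean log2 level of 14.2 in every array. All 8 had positive differences, from 0.00110 to 0.09 with a median of 0.04, where 49.8% of all genes had negative ones. None of the 8 had an unadjusted limma p under 0.05. The method behind the values gives no detection call. The means of 39 olfactory receptor genes, which a heart is not known to use, served as a guide, and 95% of them lay below 5.97. Of the 36 members, 27 had a mean above that level. The 9 at or below it were Nfkbie, Il6, Ccl3, Cxcl2, Sele, Selp, Traf1, Ptgs2 and Nos2, and their values may hold little but background. They enter the counts of members, role groups and genes with a promoter match.

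Most members were slightly lower in knock-in hearts, led by Nfkbia, Myd88, Lcn2 and Ccl2, while Ccl8 was higher. None of the 36 passed the test over all genes, which was limma with Benjamini-Hochberg adjustment at 0.05, where 1 of 18193 genes passed (0.00550%). The smallest adjusted p of a member was 0.289, that of Nfkbia. Before adjustment, 3 of the 36 were lower in knock-in hearts at a limma p under 0.05, where 2.99% of all genes were. Higher at that p was 1 member, where 4.40% of all genes were. Those 4 genes were Nfkbia, Myd88, Lcn2 and Ccl8. With each array centred on its median, the split of all genes at that p became 392 lower and 1145 higher, from 544 and 800 without centring.

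Of the 36 members, 29 had a negative difference (80.6%) and 7 a positive one, and the median was -0.10. Over all genes tested, 49.8% were negative and the median was 0.000238. Among the 27 members above the olfactory receptor level 21 were negative, compared with 45.6% of all genes above it. With each array centred on its median, 27 of the 36 were negative and 9 positive, and the median was -0.06, while that of all genes was 0.04. The knock-in values were both below the wild-type values in 11 members, where 17.0% of all genes had this order, and above them in 2 members, where 19.6% of all genes did. In the other 23 the groups overlapped. The 11 were Rela, Relb, Nfkbia, Tnfaip3, Il1b, Il1r1, Myd88, Ccl2, Ccl5, Cxcl12 and Lcn2, all with a mean above the olfactory receptor level, and the 2 were Nfkbib and Ccl8. Of the differences, 22 were negative without wild-type 2 and 29 without wild-type 1. The median was then -0.06 and -0.14, respectively, while that of all genes was -0.02 and 0.02. The smallest p that an exact permutation test allows with 4 arrays split evenly is 0.3333, so the order of the arrays alone can carry no single gene past the threshold.

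**Figure D1:**
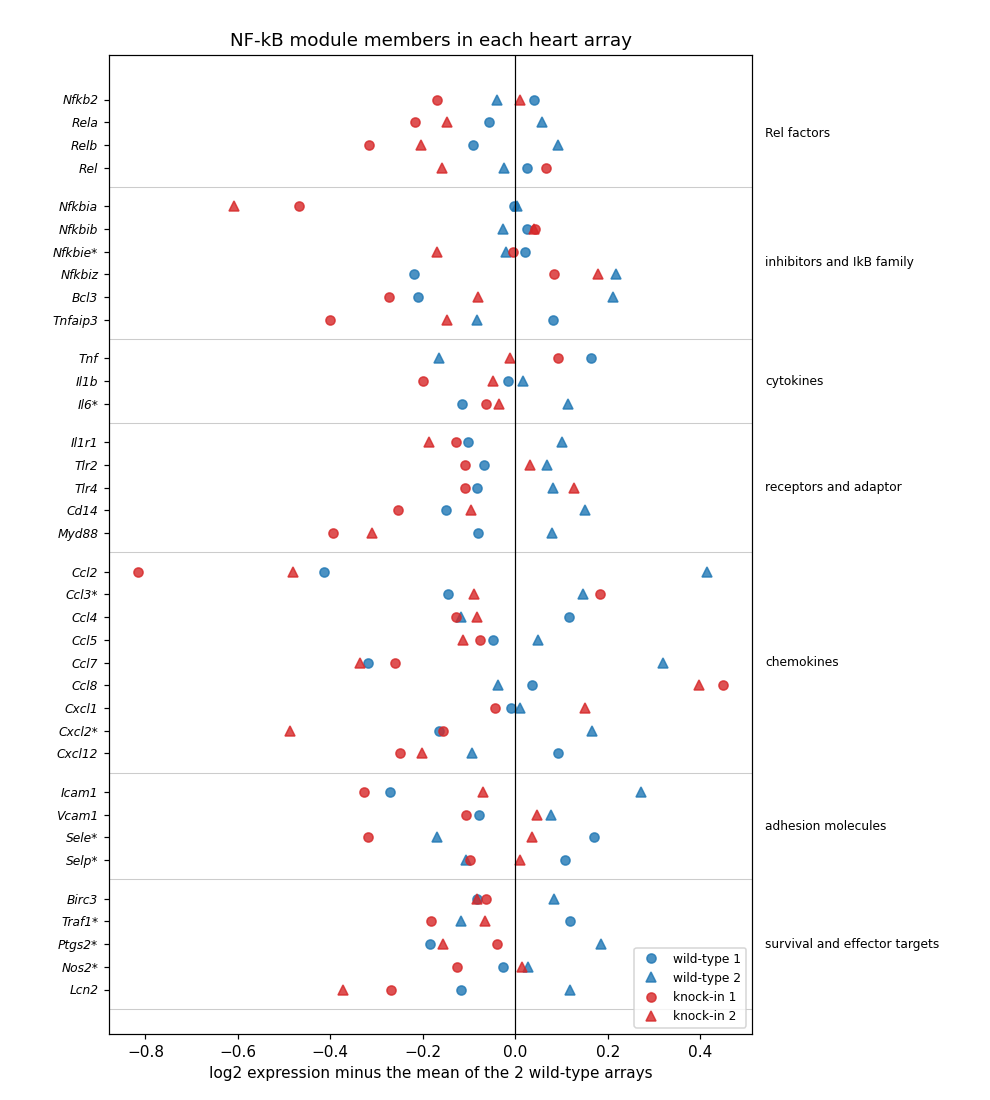
Log2 expression of each measured member in each array, as the distance from the mean of the 2 wild-type arrays, grouped by role. Blue marks are wild-type and red marks knock-in arrays, circles are replicate 1 and triangles replicate 2, and an asterisk marks a gene at or below the olfactory receptor level. The red marks of Nfkbia and Myd88 lie to the left of the blue ones, those of Ccl8 lie to the right, and wild-type 2 lies far to the right for Ccl2, Ccl7 and Icam1.

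The 4 measured Rel factors all had negative differences, with a median of -0.13. Rela encodes p65, the main activating subunit. It read 10.60 and 10.71 in wild-type hearts against 10.44 and 10.51 in knock-in hearts, a difference of -0.18 (95% confidence interval -0.43 to 0.06, limma adjusted p = 0.759). The groups did not overlap, but the gap between them, 0.09, was no larger than the distance between the wild-type arrays, 0.11. Relb encodes the partner of p52 in the slower, non-canonical branch of the pathway. Its values were 7.23 and 7.41 in wild-type and 7.002 and 7.12 in knock-in hearts, a difference of -0.26 (interval -0.53 to 0.01, limma adjusted p = 0.686). The groups did not overlap here either. Nfkb2, which encodes p100, the precursor of p52, differed by -0.08 and Rel, which encodes the lymphoid subunit c-Rel, by -0.05, both with overlapping arrays. The probe set used for Nfkb2 is of a kind (suffix x) in which some probes also match other sequences, and its other probe set, almost as bright, differed by -0.18.

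Among the inhibitors Nfkbia stood lowest relative to wild-type. It encodes IkB alpha, which NF-kB itself induces and which carries the factor back out of the nucleus. Its values were 12.58 and 12.59 in wild-type hearts and 12.12 and 11.98 in knock-in hearts. On this probe set the wild-type arrays were almost alike, and both knock-in arrays lay well below them, with a gap of 0.47. The difference was -0.54 ± 0.10 (SE, n = 2 per group, interval -0.78 to -0.29), a 1.45-fold lower level, with an unadjusted limma p of 0.00162 that ranked 101 among all genes and an adjusted p of 0.289. Nfkbia was the member with the most probe sets, 5 in all, and in each of the 5 the knock-in values were both the lower ones, an order that 18.2% of all probe sets on the array had. Their differences ran from -0.54, that of the probe set used, to -0.28, and 3 of the 5 had an unadjusted limma p under 0.05. With averaged probe sets the difference was -0.39. Another of the 5 read 9.71 and 10.08 in wild-type against 9.62 and 9.56 in knock-in hearts, so its wild-type arrays were not alike. These probe sets read the same RNA samples and are not independent replicates. Without any 1 of the arrays the difference of the probe set used stayed between -0.61 and -0.47.

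Tnfaip3 encodes A20, an ubiquitin-editing enzyme that stops signalling upstream of IkB. It was at 7.45 and 7.28 in wild-type and at 6.96 and 7.22 in knock-in hearts, a difference of -0.27 (interval -0.58 to 0.03, limma adjusted p = 0.702). The groups did not overlap, although knock-in 2 was only 0.07 below the nearer wild-type array. The second probe set of Tnfaip3 gave 5.10 and 5.08 against 4.84 and 4.80, a difference of -0.27, and these values lie below the olfactory receptor level. Nfkbia and Tnfaip3 were the only 2 of the 15 members with several probe sets in which no probe set overlapped between the groups and all were lower in knock-in hearts.

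The other IkB proteins did not share this pattern. Nfkbib, which encodes IkB beta, was at 9.33 and 9.28 in wild-type and at 9.34 and 9.34 in knock-in hearts, a difference of 0.04 (interval -0.19 to 0.27). Its second probe set differed by -0.09. Nfkbie, which encodes IkB epsilon, differed by -0.09 at a level no higher than background. Nfkbiz, which encodes the nuclear and inducible IkB zeta, differed by 0.13 with wild-type arrays at 5.82 and 6.26, farther apart than the groups. Bcl3, a nuclear IkB protein that binds p50 and p52, differed by -0.18, and by 0.03 without wild-type 2. The difference between Nfkbia and the other inhibitors was not tested.

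**Figure D2:**
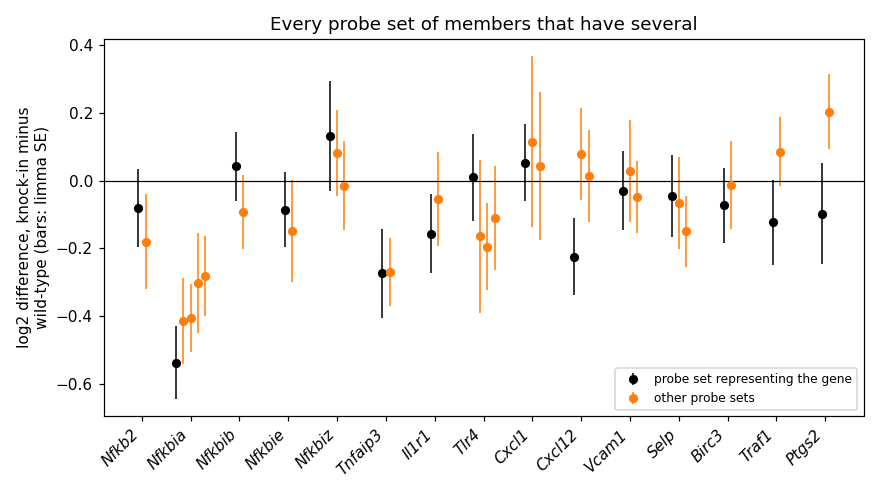
Difference between knock-in and wild-type hearts on the log2 scale for every probe set of the 15 members that have several, with limma standard errors as bars and 2 arrays per group. Black points are the probe sets that represent the genes and orange points the others. All points lie below 0 in 7 of the 15 genes, which are Nfkbia, Tnfaip3, Birc3, Il1r1, Nfkb2, Nfkbie and Selp, and in 7 others they fall on both sides.

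The receptors and the adaptor had a median difference of -0.16, which became -0.02 without wild-type 2, the array in which all 5 were higher than in wild-type 1. Myd88 encodes the adaptor that links Toll-like and interleukin-1 receptors to the kinases of the pathway. Its values were 8.86 and 9.02 in wild-type and 8.54 and 8.63 in knock-in hearts. The knock-in values lay below the wild-type ones with a gap of 0.23, more than the 0.16 between the wild-type arrays. The difference was -0.35 ± 0.11 (SE, n = 2 per group, interval -0.61 to -0.09), a 1.28-fold lower level, with an unadjusted limma p of 0.0155 and an adjusted p of 0.515. The adjusted p of Myd88 lay between 0.260 and 1 over the alternatives, and its unadjusted p was 0.0656 when wild-type 2 was left out and 0.0878 when knock-in 1 was. The receptors above that adaptor differed less. Il1r1, the signalling receptor of interleukin-1, differed by -0.16, Cd14, the co-receptor for lipopolysaccharide, by -0.18, Tlr2, the receptor for bacterial lipopeptides, by -0.04, and Tlr4, the lipopolysaccharide receptor, by 0.01. All of their intervals included 0, and without wild-type 2 the differences of Il1r1 and Cd14 were -0.06 and -0.02. The other 3 probe sets of Tlr4 had negative differences, from -0.19 to -0.11.

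The cytokines themselves showed little. Tnf, which encodes tumour necrosis factor, was at 7.22 and 6.89 in wild-type and at 7.15 and 7.04 in knock-in hearts, a difference of 0.04 (interval -0.29 to 0.37). The knock-in arrays lay between the wild-type arrays. Il1b, which encodes interleukin-1 beta, was at 7.16 and 7.19 against 6.97 and 7.12, a difference of -0.12 (interval -0.38 to 0.13), with the nearest arrays 0.03 apart. Il6 was between 3.58 and 3.81 in all arrays, no higher than the olfactory receptor level. With intervals of this width, a modest change of the cytokine transcripts was not detectable with 4 arrays.

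The chemokines went both ways, with Ccl2 lower and Ccl8 higher in knock-in hearts. Of the 9, 6 had negative and 3 positive differences, with a median of -0.10 that became -0.05 without wild-type 2. Ccl2 encodes MCP-1, which draws monocytes through the receptor CCR2. It read 7.19 and 8.02 in wild-type hearts against 6.79 and 7.12 in knock-in hearts, a difference of -0.65 ± 0.27 (SE, n = 2 per group, interval -1.30 to 0.00315), a 1.57-fold lower level (unadjusted limma p of 0.0508, adjusted p = 0.676, and unadjusted 0.0126 with the replicate number as a block). Both knock-in arrays were the lowest, but the 2 wild-type arrays were 0.83 apart, more than the difference between the groups, and the nearest arrays of the groups were 0.07 apart. Leaving out wild-type 2 made the Ccl2 difference -0.23, and leaving out wild-type 1 made it -1.06.

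Ccl8 encodes MCP-2, a chemokine made by tissue macrophages among other cells. Its values were 6.69 and 6.61 in wild-type and 7.10 and 7.05 in knock-in hearts. Both knock-in values were the higher ones with a gap of 0.36, wider than the distance between the arrays of either group. The difference was 0.42 ± 0.10 (SE, n = 2 per group, interval 0.19 to 0.66), a 1.34-fold higher level, with an unadjusted limma p of 0.00435, rank 217 among all genes, and an adjusted p of 0.364. Ccl7, which encodes MCP-3, was at 6.01 and 6.65 against 6.07 and 5.99, so that wild-type 2 alone was high. Its difference of -0.30 became 0.02 without that array.

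Cxcl12 encodes the chemokine SDF-1, which is made constitutively by stromal and endothelial cells. It was at 11.65 and 11.46 in wild-type and at 11.31 and 11.35 in knock-in hearts, a difference of -0.23 (interval -0.49 to 0.04, limma adjusted p = 0.718). The groups did not overlap, but the 2 other probe sets of Cxcl12 differed by 0.08 and 0.01, and with averaged probe sets the difference was -0.04. Of the remaining chemokines, Ccl4, which encodes MIP-1 beta, and Ccl5, which encodes the T cell chemokine RANTES, differed by -0.10 and -0.09. Cxcl1, a neutrophil chemokine, had 3 probe sets with differences from 0.04 to 0.11. Its brightest probe set is also of the cross-matching kind with the suffix x. Ccl3 and Cxcl2 were at or below the olfactory receptor level.

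The adhesion molecules of the endothelium overlapped between the genotypes. All 4 had negative differences, with a median of -0.09 that became 0.02 without knock-in 1. Icam1, the ligand of the leukocyte integrins LFA-1 and Mac-1, was at 6.97 and 7.51 in wild-type and at 6.91 and 7.17 in knock-in hearts, a difference of -0.20 (interval -0.67 to 0.27). Wild-type 2 alone was high, and without it the Icam1 difference was 0.07. Vcam1, the ligand of integrin alpha 4 beta 1, was at 7.57 and 7.72 against 7.54 and 7.69, a difference of -0.03 (interval -0.30 to 0.24), which became 0.00903 with each array centred on its median. Its 2 other probe sets differed by 0.03 and -0.05. The selectins Sele and Selp, which let leukocytes roll on activated endothelium, were at or below the olfactory receptor level, with differences of -0.14 and -0.04.

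The 5 survival and effector targets had a median difference of -0.10, which became -0.03 without wild-type 2. Only Lcn2 and Birc3 lay above the olfactory receptor level. Lcn2 encodes lipocalin 2, an iron-siderophore binding protein of the acute phase. It was at 6.93 and 7.17 in wild-type and at 6.78 and 6.68 in knock-in hearts, a difference of -0.32 (interval -0.61 to -0.03, 1.25-fold lower), with an unadjusted limma p of 0.0341 and an adjusted p of 0.609. The groups did not overlap, and the gap of 0.15 was smaller than the 0.24 between the wild-type arrays. The unadjusted limma p of Lcn2 was under 0.05 in 7 of the 12 alternatives in which it was tested. It was 0.0624 with the replicate number as a block and 0.0586 with arrays centred. Leaving out wild-type 2 gave 0.145, leaving out knock-in 1 gave 0.0651 and leaving out knock-in 2 gave 0.153. Birc3, which encodes the apoptosis inhibitor cIAP2, differed by -0.07 with overlapping arrays. Traf1, an adaptor of tumour necrosis factor receptors, Ptgs2, which encodes cyclooxygenase 2, and Nos2, the inducible nitric oxide synthase, were at or below the olfactory receptor level. The probe sets that represent them differed by -0.12, -0.10 and -0.06, and the other probe sets of Traf1 and Ptgs2 by 0.09 and 0.20.

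Several of these differences moved with wild-type 2. Ccl2, Ccl7, Icam1, Nfkbiz and Bcl3 were higher there than in wild-type 1 by 0.83, 0.64, 0.54, 0.44 and 0.42. Of the 36 members, 24 were higher in wild-type 2 than in wild-type 1 (66.7%), with a median of 0.13, while 41.4% of all genes were, with a median of -0.04. Without wild-type 2, 2 of the 36 were lower at an unadjusted limma p under 0.05, Nfkbia and Cxcl12, where 5.01% of all genes were. In the same fit 2 were higher, Ccl8 and Nfkbiz, where 5.80% of all genes were, so both counts were near the background. Without wild-type 1, 9 were lower, Ccl2, Ccl7 and Icam1 among them, where 3.04% of all genes were, and 1 was higher, where 3.92% were. Without wild-type 1, wild-type 2 was the lone wild-type array. Nfkbia, Myd88 and Lcn2, also among those genes, were lower at that p with all 4 arrays too. Ccl7, Icam1 and Bcl3 differed by -0.62, -0.47 and -0.39 without wild-type 1, and by 0.02, 0.07 and 0.03 without wild-type 2. Relb, Ccl2 and Cxcl2 stayed negative without either, Cxcl2 at a level no higher than background. Over all 13 alternatives, Nfkbia had an unadjusted limma p under 0.05 in each (adjusted p from 0.0511 to 1), and Ccl8 in all 12 in which it was tested (adjusted p from 0.223 to 1).

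**Figure D3:**
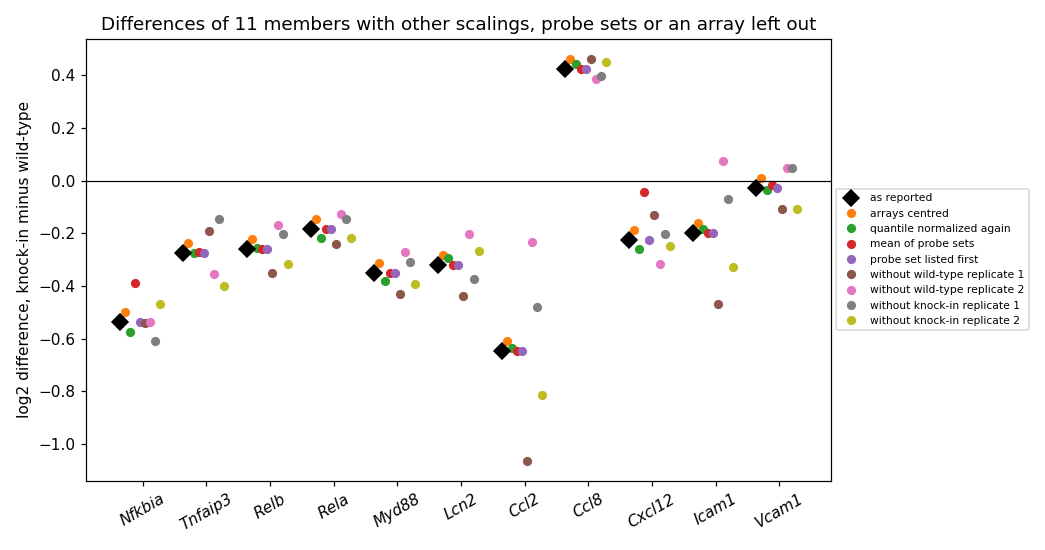
Difference between knock-in and wild-type hearts on the log2 scale for 11 members as reported (black diamonds) and with other scalings, other choices of probe set or 1 array left out (coloured points). Every point of Nfkbia lies below 0 and every point of Ccl8 above it, while Ccl2 runs from -1.06 without wild-type 1 to -0.23 without wild-type 2, and Icam1 and Vcam1 lie on both sides of 0.

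The rest of the pathway was measured with 109 of 117 listed genes that are not members. None of them passed over all genes with limma. Before adjustment, 5 of the 109 were lower and 4 higher at a limma p under 0.05, near the 2.99% and 4.40% of all genes. The median difference was -0.00618. None of the 28 measured kinases, adaptors and receptors upstream of NF-kB reached that p in either direction (median -0.00725). Another 4 of that list, Chuk, Ripk1, Traf3 and Irak4, were not analysed. Of the 18 other negative regulators 1 was higher, Zc3h12a, which encodes the ribonuclease Regnase-1 that degrades inflammatory transcripts (0.28), at a level no higher than background.

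Among 18 further chemokines Ccl11, the eosinophil chemokine eotaxin, was at 5.56 and 6.12 in wild-type and 6.46 and 6.46 in knock-in hearts. The difference was 0.62, and the wild-type arrays were 0.56 apart, more than the gap of 0.34 between the groups. Wild-type 1 was below the olfactory receptor level. Ccl12, a monocyte chemokine of the mouse, was at 5.79 and 6.30 against 5.52 and 5.49, a difference of -0.55, near background. Among 13 chemokine receptors Ackr3, a scavenging receptor for CXCL12, was at 9.92 and 10.17 against 10.33 and 10.66, a difference of 0.45. Neither Ccl11 nor Ackr3 overlapped between the groups, and their adjusted p was 0.496 and 0.562 from limma.

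Among 17 further cytokines and receptor chains, 3 were lower and 1 higher at that unadjusted p, where 2.99% and 4.40% of all genes were. Csf1, the growth factor of macrophages, was at 10.48 and 10.66 in wild-type and at 10.06 and 10.17 in knock-in hearts, a difference of -0.45 (limma adjusted p = 0.395). Csf2, which encodes GM-CSF, and Il12a, which encodes the p35 chain of interleukin-12, differed by -0.34 and 0.35 at or below the olfactory receptor level. Osmr, the receptor chain for oncostatin M, differed by -0.44, and it is named after its value was seen. Among 15 integrins and other adhesion molecules only Itgam, which encodes CD11b of monocytes and neutrophils, reached that p, with a difference of -0.48, and its values of 4.88 to 5.38 were below the olfactory receptor level.

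Markers of cell types that make or answer these signals, and of liver, were read in the same way. Of 12 macrophage markers 9 had positive and 3 negative differences (median 0.10), and the sum of their log2 levels was 103.4 and 104.1 in wild-type and 104.0 and 105.4 in knock-in arrays. The groups overlapped in that sum. Ccl8 differed in the direction of the macrophage median, and Ccl2 and Csf1 in the opposite one, and a link of these genes to macrophage content was not tested. All 7 T lymphocyte and all 5 B lymphocyte markers had negative differences, with medians of -0.17 and -0.21. The T lymphocyte sum was 42.3 and 40.6 in wild-type and 40.3 and 40.2 in knock-in arrays, so that wild-type 1 alone was high, and the B lymphocyte sum was 31.2 and 30.4 against 30.2 and 29.7. The 8 neutrophil markers had a median of -0.03 with sums of 48.2 and 46.8 against 47.7 and 47.0, and the 10 endothelial markers one of -0.08 with sums of 99.5 and 98.7 against 98.1 and 99.7. The 8 fibroblast markers were split evenly, with a median of 0.00294. Of the 7 smooth muscle and pericyte markers 6 had negative differences (median -0.06), with sums of 69.8 and 69.7 in wild-type and 69.6 and 68.4 in knock-in arrays. Among them Acta2, smooth muscle actin, was at 12.53 and 12.53 against 12.32 and 12.15, a difference of -0.30 with an unadjusted limma p of 0.0289 and an adjusted p of 0.587. No other marker in these 7 lists had an unadjusted limma p under 0.05, and none is at a value of 0 because the summary method gives every probe set a value. Timd4, Mpo, Ngp, Mmp8, Cd3d, Cd3g, Cd2, Cd5 and Ms4a1 were at or below the olfactory receptor level.

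Of the 8 liver markers all had positive differences, with a median of 1.38. Their sum was 50.9 and 47.4 in wild-type and 58.7 and 64.5 in knock-in arrays. All 8 were higher at an unadjusted limma p under 0.05, where 4.40% of all genes were. None passed after adjustment (smallest limma adjusted p = 0.142). In all 8 the knock-in values were both above the wild-type values, where 19.6% of all genes had this order. The means of 2 of the 8 were at or below the olfactory receptor level. Alb was at 7.01 and 5.54 against 8.58 and 9.66. Lcn2, which liver also makes in the acute phase, lay lower in the arrays in which the liver markers were higher. The part of these cell types in the differences of the members was not tested.

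**Figure D4:**
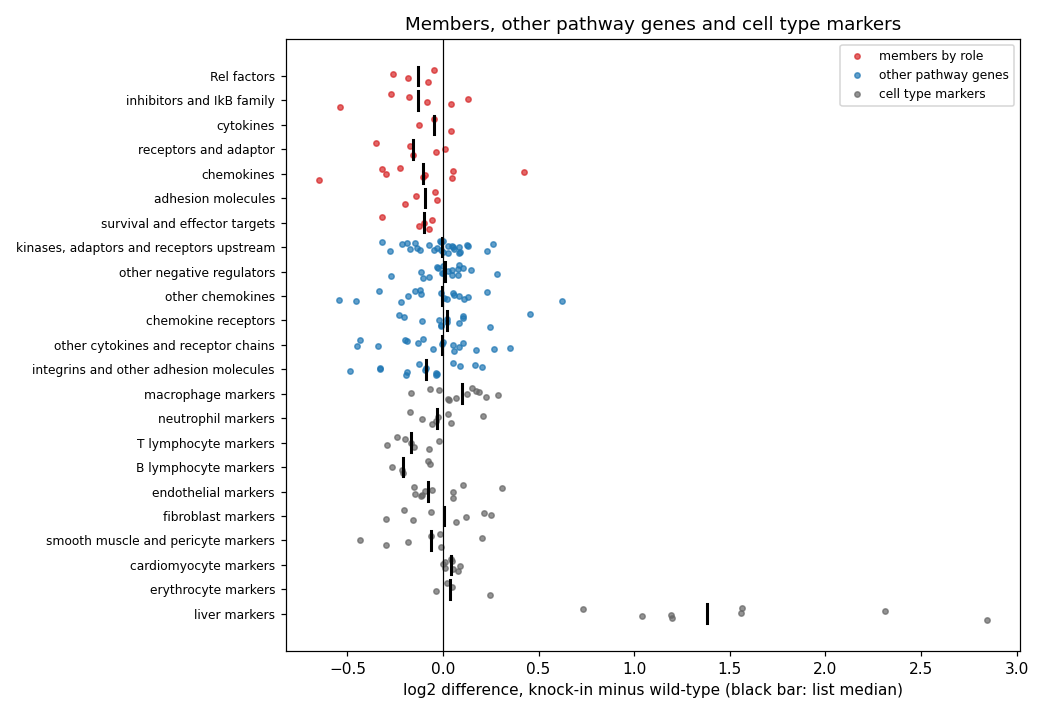
Difference between knock-in and wild-type hearts on the log2 scale for every measured member by role (red), for the other genes of the pathway (blue) and for cell type markers (grey), with 1 point per gene and the median of each list as a black bar. The medians of the 7 role groups lie between -0.16 and -0.05, those of the other pathway lists between -0.09 and 0.02, and that of the liver markers at 1.38.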

How the data were processed

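The deposited values are log2 expression values, made by the authors with RMA in Affymetrix Expression Console, per the submitters' processing notes, with versions not given in the sources used here. This method normalizes arrays to each other, which can remove a shift common to all genes, and the array medians still differed slightly. Of 45101 probe sets, 34945 had 1 gene symbol in the platform annotation, updated through Entrez identifiers (34741 matched). All 18193 genes were tested two-sided in limma 3.58.1 (R 4.3.3; lmFit, eBayes) with Benjamini-Hochberg adjustment. Tested on simulated data, this recovered 99.5% of 4-fold changes in 200 of the 18193 genes, with 9.8 false calls per run. The simulated spreads were drawn from the fitted prior of limma. Changes of the size seen in the members, at most 1.57-fold, were not simulated, so recovery at that size is not known. Confidence intervals are 95% and unadjusted. The number of arrays limits the precision.

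The members and lists were chosen with earlier results of these data known, and no p was adjusted over a list. Array values are given for members above the 95th percentile of olfactory receptor genes with an unadjusted p under 0.05, or with groups that do not overlap and a difference of at least 0.3, and for Nfkbia, Rela, Icam1, Vcam1, Ccl2 and Cxcl12. Relb, Tnfaip3, Nfkbib, Nfkbiz, Tnf, Il1b and Ccl7 were added after their values were seen. From each pathway list up to 3 genes of smallest unadjusted p under 0.05 are named. Sequences are from RefSeq, build GRCm38.p6. Alternatives were a replicate block, a trended robust prior, centred arrays, renewed quantile normalization, filters on dim genes, other probe set choices and leaving out each array.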

Additional observations from a re-analysis of the deposited data

How the results depend on the processing

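No member passed over all genes with limma under any of the 13 alternatives, and those at an unadjusted p under 0.05 changed in number. Genes passing over all genes, 1 as reported, were 22 with an intensity trend and robust prior, 11 with arrays centred, 11 after renewed quantile normalization, 11 with averaged probe sets, 7 among genes above the median, 0 with the probe set listed first, 0 with every probe set as a feature and 0 without any 1 of the arrays. The members lower at an unadjusted p under 0.05, 3 as reported, were 5 with the intensity trend, 6 with averaged probe sets, 5 after quantile normalization and from 2 to 9 without 1 array. The members higher, 1 as reported, were 0 among genes above the median, where Ccl8 was not tested, and from 1 to 2 without 1 array. The median of the chemokines, -0.10 as reported, was -0.0661 with arrays centred, -0.225 among genes above the median and from -0.132 to -0.0462 without 1 array. Without 1 array, Icam1 ran from -0.470 to 0.0729, positive only without wild-type 2. Vcam1 turned to 0.00903 with arrays centred and ran from -0.107 to 0.0480 without 1 array, positive when wild-type 2 or knock-in 1 was left out. The cause was not tested. The other 9 of the 11 members plotted by alternative kept their direction in every alternative in which they were tested. With only the 27 members above the olfactory receptor level, chosen after seeing the data, the median was -0.12.

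With the replicate number as a block 0 genes passed, and 3 members were lower and 1 higher at an unadjusted p under 0.05, with Ccl2 (0.0126) in place of Lcn2 (0.0624). Deviations of same-numbered arrays from their group means correlated at -0.03 over genes. A value over all genes cannot tell whether same-numbered arrays share a batch that affects some genes. With 2 arrays per group, an alternative that leaves out an array assumes that the lone array varies like the others. Low signal limits the 9 members at or below the olfactory receptor level.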
